A study of Mus musculus with 40 samples.

Results

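The genes described here are 10 components of interleukin-6 (IL-6) family and interleukin-1 (IL-1) signalling, read from a table of gene counts of mouse liver. They and the gene lists below were chosen by name with earlier results of these data known. Counts of called genes set beside shares of all tested genes are therefore a description and not a test. They are the ligand gene Il6, the receptor genes Il6ra, Il6st, Osmr, and Lifr, the transcription factor gene Stat3, its feedback inhibitor gene Socs3, the ligand gene Il1b, the receptor gene Il1r1, and the antagonist gene Il1rn. All 10 were found by symbol among the 55487 genes of the table, and all 10 are among the 20297 genes that were tested after a filter on low counts. Il6 passed that filter through 3 libraries, all from HNKO livers and none from WT livers, so that the choice of tested genes favoured higher HNKO levels for it and its tests give no support. The other 9 genes passed in all 38 libraries used.

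IL-6 binds its own receptor subunit, encoded by Il6ra, and this pair then engages gp130, encoded by Il6st, which is shared by the cytokines of the family. Oncostatin M and leukemia inhibitory factor (LIF) use the receptor subunits encoded by Osmr and Lifr together with gp130. Janus kinases bound to gp130 phosphorylate STAT3, STAT3 switches on Socs3, and the SOCS3 protein dampens gp130 signals. In the liver, IL-6 family cytokines drive hepatocytes to make acute phase proteins. IL-1β, a cytokine made mainly by myeloid cells, acts through the receptor encoded by Il1r1 and the kinases of the IRAK family, and the antagonist encoded by Il1rn occupies that receptor without a signal.

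Total RNA of whole liver was sequenced from female mice on the C57BL/6JBomTac background on a purified control diet (PD), with livers taken at 4 times, namely after 3 days, 6 days, 12 days, and 21 days of feeding. HNKO mice carry Nampt fl/fl alleles and Alb-Cre+/-, which the study describes as a hepatocyte-specific knockout of Nampt, and WT mice are floxed littermates. Nampt encodes the rate-limiting enzyme of NAD+ salvage from nicotinamide. The labels give the days as age, whereas the study's methods give 9-week-old mice and days of feeding, and days of feeding are used here. Each library came from a single mouse. Of the 38 libraries used, 19 were WT (5, 4, 5, and 5 in the order of the days) and 19 were HNKO (5, 5, 6, and 3). Libraries 17 and 18 of HNKO at day 21 are described as having failed quality control and were left out. The comparisons ask how transcripts of these genes differ between HNKO and WT livers at each day. In bulk liver RNA, fewer cells of a type and less RNA per cell cannot be told apart.

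Sequence upstream of the RefSeq start of 3 of these genes is shown because STAT3 and NF-κB, the factors downstream of gp130 and of the IL-1 receptor, bind short DNA motifs. Promoters of RefSeq on GRCm38.p6 were found for all 10 genes, with 1 promoter each except for Lifr and Il1r1 with 2 and Il1rn with 3. Both strands were searched for the STAT motif TTCNNNGAA and the NF-κB motif, GGG and TTTCC with 2 bases between them, where N is any base, from 250 bases before the start to 50 bases after it. Of 32851 promoters of that length, 8.298% hold the STAT motif and 1.629% hold the NF-κB motif. Socs3 was the only one of the 10 genes with a match to the STAT motif, at positions -154 to -146 from the start. Il6 had a match to the NF-κB motif at -44 to -35, and Il1rn had the same match within 2 overlapping promoters. Neither motif was matched in the windows of the other 7 genes. The lines below give the upstream stretch, 5′ to 3′ on the strand of the gene, with a matched motif in capitals. Positions are counted from the RefSeq start. The Socs3 stretch is chr11:117969452-117969616 on the minus strand, lies within the span of the GENCODE M21 gene, and stops where an annotated exon begins, the Stat3 stretch is chr11:100939541-100939790 on the minus strand, and the Il6 stretch is chr5:30012864-30013113 on the plus strand. Stat3 is shown as a gene of the same pathway without a match.
Socs3: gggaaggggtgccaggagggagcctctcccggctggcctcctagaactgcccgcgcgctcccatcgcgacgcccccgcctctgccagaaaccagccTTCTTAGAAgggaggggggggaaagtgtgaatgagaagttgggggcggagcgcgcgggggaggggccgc
Stat3: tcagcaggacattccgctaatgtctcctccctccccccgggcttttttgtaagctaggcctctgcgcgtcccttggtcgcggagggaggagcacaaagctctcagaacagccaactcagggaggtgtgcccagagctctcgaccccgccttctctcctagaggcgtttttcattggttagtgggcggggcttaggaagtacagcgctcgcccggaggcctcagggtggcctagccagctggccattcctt
Il6: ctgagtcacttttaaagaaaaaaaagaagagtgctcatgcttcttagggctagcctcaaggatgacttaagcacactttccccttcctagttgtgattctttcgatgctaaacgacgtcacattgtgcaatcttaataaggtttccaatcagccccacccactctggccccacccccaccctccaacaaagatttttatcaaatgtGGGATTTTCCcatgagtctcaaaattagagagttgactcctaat
A match to a motif is a description of these letters and not evidence of binding.

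The libraries held between 16151037 and 64181492 counts on genes (median 26466478.5). Nampt, the targeted gene, was lower in HNKO than in WT at each day, by 0.93, 0.90, 0.82, and 0.69 on the log2 scale at days 3, 6, 12, and 21 (adjusted p = 0.0193, 0.0128, 0.0208, and 0.161, edgeR). The libraries of the genotypes did not overlap for Nampt at days 3, 12, and 21 and overlapped at day 6. Among all tested genes, 1.8%, 2.14%, and 6.7% had every HNKO library below every WT library at days 3, 12, and 21. Values per library below are log2 CPM, the usual scaling of counts by library size on the log2 scale, with a prior count of 2 added. A gene is called where the adjusted p-value of edgeR's quasi-likelihood test over all tested genes is under 0.05, and a fold change is HNKO against WT on the log2 scale with its standard error (SE).

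Levels of the 10 genes spanned a wide range. Per kilobase of exon, the median level over 19 WT livers was highest for Lifr with 51.8 CPM per kb (range 32.98 to 121), followed by Il6st with 29.99 (25.9 to 34.6). Stat3 followed with 13.3 CPM per kb (10.2 to 16.1). Ranges of Lifr and Il6st overlapped, whereas Stat3 lay below both and above Il1r1, the next gene in this order, while its range overlapped those of Il6ra and Socs3. Il1r1 with 6.25 CPM per kb (4.42 to 8.33), Il6ra with 5.65 (2.72 to 10.5), and Socs3 with 4.87 (1.88 to 11.7) overlapped each other. Il1b with 1.95 CPM per kb (0.796 to 5.62), Il1rn with 1.01 (0.621 to 2.33), and Osmr with 0.713 (0.662 to 0.953) came next, and each overlapped its neighbour in this order. Il6 was lowest with 0.0290 CPM per kb (0 to 0.141) and did not overlap Osmr. In 19 HNKO livers, the order by median was the same except that Socs3, with 9.69 CPM per kb (2.59 to 32.5), stood above Il1r1 with 7.89 (6.31 to 16.1) and Il6ra with 4.54 (2.97 to 6.74). In HNKO livers Lifr had a median of 35.2 CPM per kb (24.04 to 58.5) and Il6st of 34.2 (27.9 to 41.6).

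At day 6, 6 of the 10 genes were called, and all 6 were higher in HNKO livers. These were Il6st, Osmr, Stat3, Socs3, Il1r1, and Il1rn. Of all tested genes, 12.8% were called at day 6, with 8.42% higher and 4.37% lower. At day 3, 2 of the 10 genes were called, Osmr as higher and Lifr as lower, with 4.66% of all tested genes called (2.95% higher and 1.71% lower). Osmr and Socs3 were called as higher at day 12, where 7.82% of all tested genes were called (4.56% higher and 3.27% lower). At day 21, Il6 alone was called, by the test that gives no support, with 3.12% of all tested genes called. The median log2 fold change of the 10 genes was 0.24, 0.90, 0.40, and 0.22 at days 3, 6, 12, and 21, and the median over all tested genes was 0.01, -0.01, 0.00, and -0.01.

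**Figure D1:**
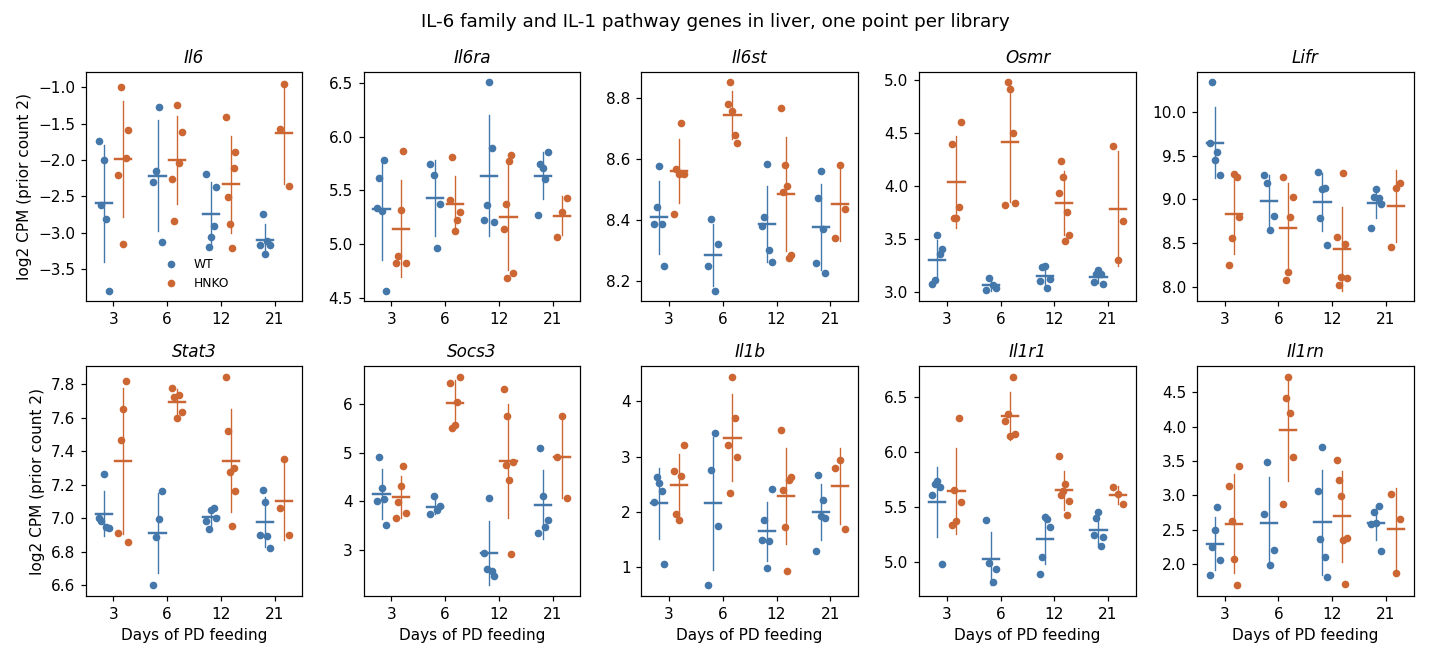
Log2 CPM of each of the 10 genes (y axis, own scale per gene) against days of PD feeding (x axis), with 1 point per library, horizontal lines at the group mean, and vertical lines of 1 SD (WT in blue, HNKO in orange; n = 3 to 6 per group). All HNKO libraries exceed all WT libraries of their day for Osmr at all 4 days, for Il1r1 at days 6, 12, and 21, for Il6st, Stat3, and Socs3 at day 6, and for Il6 at day 21. Among all tested genes, 2.31%, 8.08%, 2.65%, and 7.25% do so at days 3, 6, 12, and 21.

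Among the receptor genes, Osmr differed at the most days. Osmr, which encodes the oncostatin M receptor subunit, lies on chromosome 15 from 6813577 to 6874969 on the minus strand (GRCm38) and on the same chromosome as Lifr, which runs from 7090614 to 7197489 on the plus strand. At day 3, Osmr stood at 3.08, 3.12, 3.54, 3.36, and 3.41 log2 CPM in the WT livers and at 4.40, 3.70, 3.70, 3.802, and 4.61 in the HNKO livers. Each HNKO liver was above each WT liver. At day 6, the WT livers had 3.02, 3.14, 3.07, and 3.04 log2 CPM, and the HNKO livers had 3.82, 4.98, 4.92, 4.50, and 3.84. The WT livers were close to each other at this day, and the HNKO livers fell into a lower pair and a higher group. At day 12, WT livers had 3.10, 3.24, 3.25, 3.04, and 3.12 log2 CPM, and the 6 HNKO livers ranged from 3.48 to 4.23 with a median of 3.85. At day 21, WT livers had 3.10, 3.17, 3.21, 3.17, and 3.08 log2 CPM, and HNKO livers had 4.38, 3.31, and 3.67. The genotypes did not overlap at any of the 4 days, where 2.31%, 8.08%, 2.65%, and 7.25% of all tested genes had every HNKO library above every WT library at days 3, 6, 12, and 21, and 1.8%, 4.68%, 2.14%, and 6.7% had every HNKO library below.

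Osmr was higher in HNKO by 0.79 on the log2 scale at day 3 (SE 0.20, adjusted p = 0.0223). Its largest fold change was 1.44 at day 6 (SE 0.22, adjusted p = 8.36e-05, 2.72-fold). Day 12 gave 0.72 (SE 0.20, adjusted p = 0.0227). At day 21, the fold change of 0.72 (SE 0.23, adjusted p = 0.0732) did not pass, but passed without HNKO library 38 (0.95, adjusted p = 0.0257) or 29 (0.74, adjusted p = 0.04998). Osmr was thus called at 3 of the 4 days, as were 2.45% of all tested genes at 3 or more days, and Socs3 at 2, as were 6.39% at 2 or more days. Averaged over the 4 days, it rose by 0.92 (SE 0.11, adjusted p = 5.69e-08), the smallest p-value of the 10 genes, in a contrast that called 36.4% of all tested genes. The day 3 call was lost without HNKO library 2 (0.70, adjusted p = 0.081), WT library 5 (0.74, adjusted p = 0.056), or HNKO library 23 (0.63, adjusted p = 0.102), and in a fit of only the day 3 groups (adjusted p = 0.0513). The day 12 call was lost without HNKO library 12 (0.63, adjusted p = 0.0543) or 13 (0.67, adjusted p = 0.0525).

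Il6st, which encodes the shared subunit gp130, was called at day 6 only. At day 6, it stood at 8.25, 8.40, 8.17, and 8.32 log2 CPM in the WT livers and at 8.78, 8.85, 8.76, 8.68, and 8.65 in the HNKO livers. The groups did not overlap at this day, and the gap between them was narrow. Every HNKO library was above every WT library for 8.08% of all tested genes at this day. Il6st rose by 0.46 on the log2 scale at day 6 (SE 0.10, adjusted p = 0.00177, 1.37-fold), and this call was kept without any 1 library. At days 3, 12, and 21, the fold changes were 0.15, 0.10, and 0.07 (adjusted p = 0.345, 0.488, and 0.785), and the genotypes overlapped. Averaged over the days, Il6st rose by 0.20 (SE 0.05, adjusted p = 0.00124).

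Lifr, which encodes the LIF receptor subunit, went the other way. At day 3, WT livers had 9.65, 10.34, 9.45, 9.55, and 9.28 log2 CPM, and HNKO livers had 8.25, 8.55, 9.29, 9.25, and 8.79. HNKO livers were lower with a small overlap, since 4 of the 5 were below every WT liver. The fold change was -0.82 (SE 0.25, adjusted p = 0.0479). At days 6, 12, and 21, it was -0.26, -0.49, and -0.00 (adjusted p = 0.568, 0.190, and 0.996), and the genotypes overlapped. Averaged over the days, Lifr fell by 0.39 on the log2 scale (SE 0.13, adjusted p = 0.0156) and was the only one of the 10 genes called lower. The day 3 call stood at the threshold and was lost in 22 of 38 fits that left out 1 library, among them those without libraries 1, 2, 3, 5, 23, 24, or 25 of day 3 (fold changes from -0.88 to -0.60, largest adjusted p = 0.164). It was also lost with no filter (adjusted p = 0.0652), with all 40 libraries (adjusted p = 0.0667), and in a fit of the day 3 groups alone (adjusted p = 0.0869), and the average call was lost without HNKO library 37 (-0.33, adjusted p = 0.0597).

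Il6ra, the gene of the receptor subunit specific to IL-6, was not called at any day. WT livers ranged from 4.56 to 6.51 log2 CPM over the 4 days and HNKO livers from 4.69 to 5.87, so that the ranges overlapped. At day 12, 3 of 6 HNKO livers lay below every WT liver. The fold changes were -0.17, -0.07, -0.41, and -0.38 at days 3, 6, 12, and 21 (adjusted p from 0.292 to 0.908), and the average was -0.26 (SE 0.13, adjusted p = 0.122). The unadjusted 95% interval of the average ran from -0.52 to 0.0064, and without HNKO library 22 the average was -0.32 (adjusted p = 0.0450). Of the stretches of 51 bases in its transcripts, 2.27% occur in transcripts of other genes, the largest share among the 10 genes.

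The ligand gene Il6 was near the limit of detection in every liver. Counts were between 0 and 7 per WT library and between 1 and 15 per HNKO library. At day 21, WT livers had -3.17, -2.74, -3.29, -3.11, and -3.17 log2 CPM, and HNKO livers had -1.58, -0.96, and -2.36. These values stand for 1 or 2 counts in the WT libraries and for 4 to 10 counts in the HNKO libraries, which do not overlap. The fitted fold change was 2.50 (SE 0.71, adjusted p = 0.0449). The gene was tested only because HNKO libraries passed the filter on low counts, so the test is no support for a difference. The call was lost in 7 of 36 fits that left out 1 library, namely WT library 19, 20, 21, 39, or 41 and HNKO library 37 or 38 (2.05 to 2.73, largest adjusted p = 0.322), and without HNKO library 3 or 29 the gene did not pass the filter. At days 3, 6, and 12, the fold changes were 0.86, 0.32, and 0.78 (adjusted p = 0.437, 0.796, and 0.452), and the genotypes overlapped. The average fold change was 1.11 (SE 0.32, adjusted p = 0.00561) and has the same limit.

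Stat3, the transcription factor gene downstream of gp130, rose at day 6. It lies on chromosome 11 from 100885098 to 100939540 on the minus strand. At day 6, Stat3 stood at 6.60, 6.89, 6.996, and 7.16 log2 CPM in the WT livers and at 7.78, 7.72, 7.60, 7.74, and 7.64 in the HNKO livers. HNKO livers were close to each other and above all WT livers, where 8.08% of all tested genes had every HNKO library above. The fold change was 0.77 (SE 0.16, adjusted p = 0.00144, 1.71-fold), and no single library removed the call. At day 3, HNKO livers had 6.91, 7.47, 7.65, 7.82, and 6.86 log2 CPM, and WT livers had 6.999, 6.98, 7.26, 6.95, and 6.94. At that day, 3 HNKO livers were above every WT liver and 2 were below every WT liver. The fold changes at days 3, 12, and 21 were 0.36, 0.36, and 0.13 (adjusted p = 0.146, 0.101, and 0.752), and the average was 0.41 (SE 0.08, adjusted p = 8.24e-05). Stat3 shares 72 bases of exon with Stat5a on the opposite strand (median count 553), whose own day 6 fold change was -0.09 (adjusted p = 0.781), and the use of the strand in counting is not given in the sources used here.

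Socs3, which encodes the feedback inhibitor of gp130 signals and holds the STAT motif shown above, had the largest called fold changes of the 9 genes that passed the filter in every library. It lies on chromosome 11 from 117966079 to 117970047. At day 3, WT livers had 4.01, 4.92, 4.27, 4.04, and 3.51 log2 CPM, and HNKO livers had 3.66, 3.99, 4.31, 4.73, and 3.75. Every HNKO liver lay within the WT range at this day. At day 6, WT livers had 3.75, 4.10, 3.82, and 3.90, and HNKO livers had 6.43, 5.51, 5.56, 6.03, and 6.56. HNKO livers were then more than 1 log2 unit above each WT liver. At day 12, WT livers had 2.95, 2.62, 4.06, 2.57, and 2.46, and the 6 HNKO livers ranged from 2.92 to 6.31 with a median of 4.78. Of these 6, 5 were above every WT liver, and library 35 with 2.92 was within the WT range. At day 21, WT livers had 3.36, 5.09, 4.12, 3.47, and 3.62, and HNKO livers had 4.91, 5.75, and 4.07, with overlap.

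Socs3 rose by 2.19 on the log2 scale at day 6 (SE 0.47, adjusted p = 0.00200, 4.55-fold) and by 2.13 at day 12 (SE 0.42, adjusted p = 0.00341, 4.39-fold). Both calls were kept without any 1 library, with fold changes from 2.04 to 2.31 and from 1.74 to 2.54. The fold change was -0.08 at day 3 (SE 0.42, adjusted p = 0.948) and 0.98 at day 21 (SE 0.47, adjusted p = 0.259). Averaged over the days, Socs3 rose by 1.31 (SE 0.22, adjusted p = 1.81e-05). The WT mean was 2.93 ± 0.66 (SD, n = 5) at day 12 and 4.15 ± 0.51 (SD, n = 5) at day 3, and the test of a day effect within WT did not pass (adjusted p = 0.248, edgeR).

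**Figure D2:**
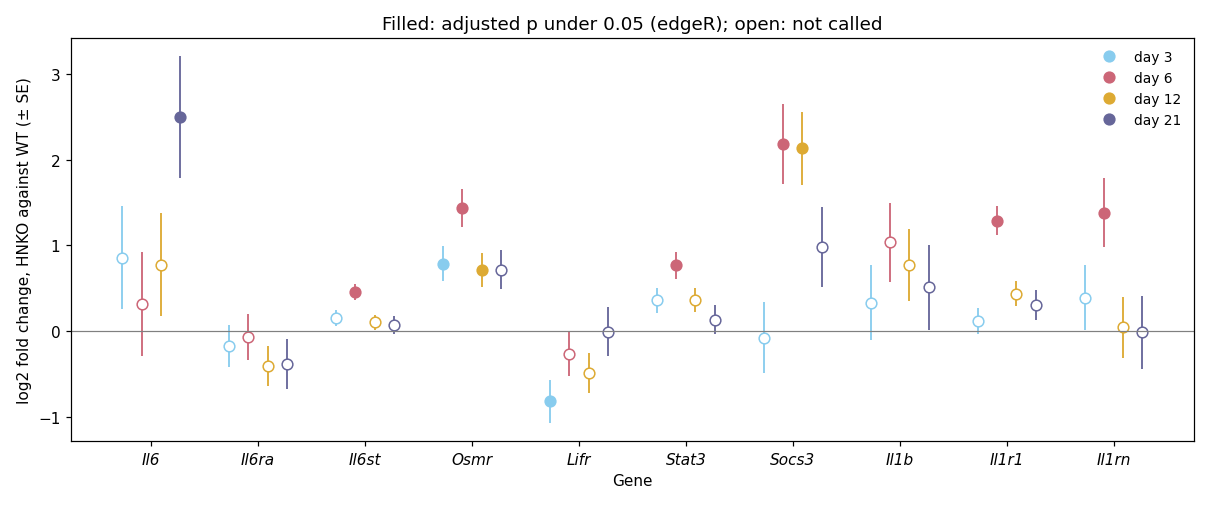
Log2 fold change of HNKO against WT (y axis) with bars of 1 SE for each gene (x axis) at days 3, 6, 12, and 21, with filled points for an adjusted p under 0.05. Filled points are Osmr at days 3, 6, and 12, Lifr at day 3, Socs3 at days 6 and 12, Il6st, Stat3, Il1r1, and Il1rn at day 6, and Il6 at day 21, whose test rests on counts of at most 10 per library.

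In the IL-1 branch, the receptor gene Il1r1 showed the clearest difference. It lies on chromosome 1 from 40225080 to 40317257 on the plus strand. At day 6, Il1r1 stood at 5.38, 4.99, 4.82, and 4.93 log2 CPM in the WT livers and at 6.28, 6.34, 6.15, 6.68, and 6.16 in the HNKO livers. All HNKO livers were above all WT livers by a wide margin. The fold change was 1.29 (SE 0.17, adjusted p = 8.67e-06, 2.44-fold), the smallest p-value of any of the 10 genes at a single day. At day 12, WT livers had 4.89, 5.05, 5.40, 5.38, and 5.32 log2 CPM, and the 6 HNKO livers ranged from 5.42 to 5.96 with a median of 5.63. At day 21, WT livers had 5.24, 5.40, 5.45, 5.15, and 5.22, and HNKO livers had 5.68, 5.61, and 5.52. The genotypes did not overlap at days 12 and 21 either, but the differences were smaller, with 0.44 (SE 0.15, adjusted p = 0.0572) followed by 0.31 (SE 0.17, adjusted p = 0.360). Among all tested genes, 8.08%, 2.65%, and 7.25% had every HNKO library above every WT library at days 6, 12, and 21. At day 3, the genotypes overlapped, with a fold change of 0.12 (SE 0.15) that was not called. Averaged over the days, Il1r1 rose by 0.54 (SE 0.08, adjusted p = 2.79e-06). The day 12 value passed with DESeq2 (adjusted p = 0.0420), in a fit of the day 12 groups alone (adjusted p = 0.0483), and without any 1 of libraries 22, 23, 26, 29, 30, 35, and 37 (adjusted p from 0.0245 to 0.0498).

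Il1b, the gene of IL-1β, varied strongly between livers of the same group. At day 6, WT livers had 0.67, 2.76, 3.43, and 1.75 log2 CPM, and HNKO livers had 3.20, 2.35, 4.44, 3.71, and 3.00. The groups overlapped, and the WT livers alone spanned more than 2 log2 units. The fold change was 1.04 (SE 0.46, adjusted p = 0.141) at day 6 and 0.33, 0.77, and 0.51 at days 3, 12, and 21 (adjusted p = 0.715, 0.259, and 0.649). Without WT library 27, the day 6 value was 1.57 (adjusted p = 0.041). Averaged over the days, Il1b rose by 0.66 (SE 0.23, adjusted p = 0.0204).

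Il1rn, which encodes the IL-1 receptor antagonist, rose at day 6. It lies on chromosome 2 from 24336853 to 24351494 on the plus strand, and Il1b lies on the same chromosome from 129364570 to 129371139 on the minus strand. At day 6, Il1rn stood at 2.74, 3.48, 1.99, and 2.21 log2 CPM in the WT livers and at 2.87, 4.41, 4.72, 4.20, and 3.56 in the HNKO livers. All but 1 HNKO liver were above every WT liver, with library 6 (2.87) below WT library 10 (3.48). The fold change was 1.38 (SE 0.40, adjusted p = 0.0204, 2.61-fold). At days 3, 12, and 21, it was 0.39, 0.05, and -0.01 (adjusted p = 0.596, 0.955, and 0.990), and the average was 0.45 (SE 0.19, adjusted p = 0.0672), which passed without any 1 of libraries 6, 10, 16, 22, 35, and 38 (0.49 to 0.55, adjusted p from 0.0223 to 0.0409). The day 6 call was lost without WT library 8 (1.39, adjusted p = 0.053), 27 (1.202, adjusted p = 0.073), or 28 (1.24, adjusted p = 0.068), without HNKO library 29 (1.18, adjusted p = 0.087), and in a fit of the day 6 groups alone (adjusted p = 0.0585).

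Averaged over the 4 days, 8 of the 10 genes were called, 7 as higher and Lifr as lower, where 19.2% of all tested genes were called higher and 17.3% lower. Il6 is 1 of the 7, with the limit given above, and Il6ra and Il1rn were not called. Whether the effect of genotype differed between days was tested by the interaction of genotype and day. None of the 10 genes passed edgeR's interaction test, and 0% of all tested genes did. At an unadjusted p under 0.05, the interaction counted 3 of the 10 genes (Il6st, Socs3, and Il1r1) and 966 of all tested genes. The lowest adjusted p-values of edgeR were 0.185 for Il1r1 and 0.572 for Socs3. DESeq2 called Il1r1 (adjusted p = 0.00870) among 12 genes in all, and edgeR called Il1r1 without HNKO library 22 (adjusted p = 0.0104). With all 38 libraries in edgeR, a difference in effect between days was thus not shown for any of the 10 genes.

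Over days within 1 genotype, 3 of the 10 genes differed among HNKO livers, where 7.9% of all tested genes did. They were Socs3 (adjusted p = 0.0168), Il1r1 (adjusted p = 0.00337), and Il1rn (adjusted p = 0.0126), of which Il1rn was lost without HNKO library 29 (adjusted p = 0.0775). Each of these had its highest HNKO mean at day 6, with 6.02 ± 0.48 (SD, n = 5), 6.32 ± 0.22 (SD, n = 5), and 3.95 ± 0.74 (SD, n = 5) log2 CPM. Among WT livers, none of the 10 genes passed edgeR's test of a day effect, which 5.84% of all tested genes passed. Lifr and Il1r1 were under 0.05 without adjustment, DESeq2 called Lifr (adjusted p = 0.0385), and edgeR called Il1r1 without WT library 26 (adjusted p = 0.0430). WT livers had a Lifr mean of 9.65 ± 0.41 (SD, n = 5) at day 3 and of 8.96 ± 0.17 (SD, n = 5) at day 21.

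Exact permutation tests of single genes at single days used only the libraries of the day and were two-sided. The smallest p that the group sizes allow is 0.00794 at days 3 and 6, 0.00216 at day 12, and 0.0179 at day 21. For Osmr, the exact p was 0.00794 at days 3 and 6, 0.00433 at day 12, and 0.0179 at day 21. For Il1r1, it was 0.00794, 0.00433, and 0.0357 at days 6, 12, and 21. Il6st, Stat3, and Socs3 had an exact p of 0.00794 at day 6, and at day 12 it was 0.346 for Il6st, 0.0303 for Stat3, and 0.0152 for Socs3. At days 3 and 21, it was 0.849 and 0.161 for Socs3 and 0.175 and 0.411 for Stat3. Lifr had an exact p of 0.0159 at day 3 and 0.0714 at day 12, Il1rn of 0.0317 at day 6, and Il1b of 0.127 at day 6. Il6 had 0.0179 at day 21, which gives no support because the gene was tested only through HNKO libraries. The tests not named here gave p from 0.0714 to 0.875. These p-values are not adjusted for the 40 tests of genes and days.

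Numbering of the libraries starts over with the first day at library 22, so that libraries 1 to 21 and 22 to 41 form 2 series, which allow 7 comparisons of the genotypes within a series and day. Osmr was higher in HNKO in 7 of 7, with differences of means from 0.51 to 1.37 log2 CPM. Il6st (0.08 to 0.49) and Stat3 (0.11 to 1.01) were also higher in 7 of 7, and Lifr was lower in 7 of 7 (-1.30 to -0.06). Socs3, Il1r1, Il1b, and Il1rn were higher in 6 of 7, and Il6ra in 2 of 7. Il6 was also higher in 6 of 7, with the limit of its low counts and of the filter given above. At day 21, HNKO libraries of the first series were not used, so that only the second series gives a value.

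Livers of the same group also differed together for some of these genes. Deviations of log2 CPM from the group mean were correlated with those of Socs3 over 38 libraries, and 9 such relations were computed. For Il6st, Pearson's r was 0.68 (permutation p = 0.00019) and Spearman's rho was 0.61 (permutation p = 0.00051). For Stat3, r was 0.51 (permutation p = 0.00329) and rho was 0.59 (permutation p = 0.00031), and for Il1r1, r was 0.44 (permutation p = 0.00183) and rho was 0.39 (permutation p = 0.0171). Without HNKO libraries 35 and 11, the farthest for Socs3, r was 0.56 for Il6st, 0.48 for Stat3, and 0.37 for Il1r1. Within the 19 HNKO livers, r was 0.66 for Il6st (permutation p = 0.0201), 0.55 for Stat3 (permutation p = 0.0200), and 0.46 for Il1r1 (permutation p = 0.0147). Within the 19 WT livers, it was 0.72 for Il6st (permutation p = 0.00327), 0.42 for Stat3 (permutation p = 0.0361), and 0.42 for Il1r1 (permutation p = 0.0713). Among WT livers, Il6ra (r = 0.59, permutation p = 0.0127), Lifr (r = 0.53, permutation p = 0.0204), and Il1rn (r = 0.52, permutation p = 0.0169) also ran with Socs3, whereas r in HNKO livers was -0.30 for Il6ra, 0.19 for Lifr, and 0.04 for Il1rn, a difference that was not tested. Without libraries 35 and 11, r in HNKO livers was 0.34 for Il6st, 0.57 for Stat3, 0.30 for Il1r1, -0.06 for Il6ra, 0.27 for Lifr, and -0.58 for Il1rn. Without WT libraries 20 and 16, the farthest among WT livers, r there was 0.67 for Il6st, 0.30 for Stat3, 0.39 for Il1r1, 0.48 for Il6ra, 0.68 for Lifr, and 0.34 for Il1rn. Over all 38 libraries, r was between -0.17 for Osmr and 0.30 for Lifr for the other 6 genes, with permutation p from 0.124 for Lifr to 0.705 for Il6ra, and the rho of Lifr was 0.43 (permutation p = 0.0145). These p-values are not adjusted for the 9 relations. With Benjamini-Hochberg adjustment of Pearson's r over them, Il6st, Stat3, and Il1r1 passed 0.05 over all 38 libraries, no gene passed within HNKO livers, and Il6st, Il6ra, Lifr, and Il1rn but not Stat3 passed within WT livers. With the same adjustment of Spearman's rho, Il6st alone passed within WT livers (adjusted permutation p = 0.00387), with 0.0875 for Il6ra, 0.0537 for Lifr, and 0.0756 for Il1rn. Over all 38 libraries, the adjusted permutation p of rho was 0.00229 for Il6st and Stat3 and 0.0384 for Il1r1 and Lifr. No gene passed within HNKO livers by rho.

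**Figure D3:**
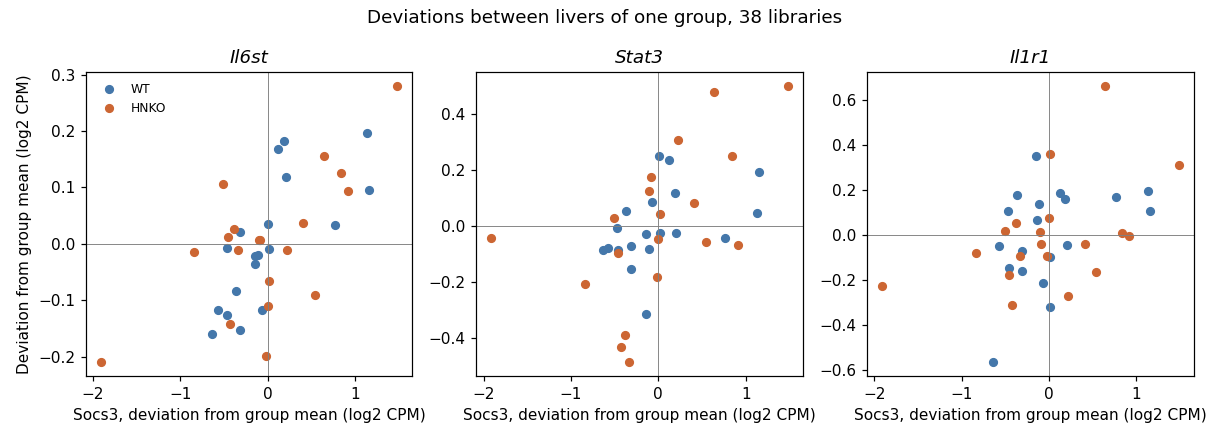
Deviation of each library from its group mean of log2 CPM for Il6st, Stat3, and Il1r1 (y axes) against that for Socs3 (x axis), with 1 point per library (WT in blue, HNKO in orange, n = 38). Points run from lower left to upper right for all 3 genes, with r = 0.68, 0.51, and 0.44, and the HNKO points at the far left and far right are libraries 35 and 11.

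Among all tested genes, the deviations most like those of Osmr were those of Arhgef2 (r = 0.87), Itpripl2 (r = 0.87), and Adcy7 (r = 0.85). Those most like Socs3 were Junb, a gene of the AP-1 factor family (r = 0.77), and Cxcl1, a chemokine gene (r = 0.72), and the third gene in that order was matched to no symbol here. Those most like Il1r1 were Usp16 (r = 0.71), Klhl21 (r = 0.67), and Usp53 (r = 0.66). Each r is over 38 libraries that share the removal of group means, and they are given as a description without a test.

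Other ligands and receptors of the IL-6 family were tested in 9 of 12 cases. Of these 9, 2, 3, 1, and 2 were called at days 3, 6, 12, and 21, all higher in HNKO. Lif and Osm passed the filter on low counts in no WT library, so that their tests, like those of Il6, give no support, and of the other 7 genes 1 was called at each day. Among all tested genes, 2.95%, 8.42%, 4.56%, and 2.21% were called higher at days 3, 6, 12, and 21, and 4.66%, 12.8%, 7.82%, and 3.12% were called in either direction. The 1 of 7 called at each day was Clcf1, a ligand gene of the family, called at all 4 days, as were 0.897% of all tested genes. At day 6, 1 of 7 is near the 12.8% of all tested genes called. Clcf1 rose by 1.39, 2.21, 1.88, and 1.82 on the log2 scale at days 3, 6, 12, and 21 (adjusted p = 0.0316, 0.00108, 0.00369, and 0.0151). Lif, the gene of the ligand that uses Lifr, ranged over the 4 days from -3.798 to -1.91 log2 CPM in WT and from -2.89 to 1.07 log2 CPM in HNKO livers. Osm, which encodes the ligand of Osmr, ranged from -3.798 to -1.91 log2 CPM in WT and from -3.798 to -0.30 in HNKO livers. Pooled over the 4 days, both genes overlapped between the genotypes. Within a day, Osm overlapped at all 4 days and Lif at days 12 and 21. At days 3 and 6, Lif was higher in every HNKO liver than in every WT liver. The lowest HNKO values were -1.81 and -1.54 log2 CPM, and the highest WT values were -1.91 and -2.31. Among all tested genes, this held for 2.31% and 8.08%. The filter favoured higher HNKO levels of Lif, so this separation gives no support.

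Among 17 tested genes of kinases, phosphatases, other STATs, and proteases of gp130 signalling, 2 were called at day 6, near the 12.8% of all tested genes, and none at days 3, 12, and 21, and the median fold change was 0.07 at day 6. Jak2, a kinase of these receptors, rose by 0.29 (SE 0.09, adjusted p = 0.0395), and Adam10, a protease that can shed receptors, rose by 0.31 (SE 0.08, adjusted p = 0.0127). Socs1, a relative of Socs3, had a day 6 fold change of 0.86 (SE 0.45, adjusted p = 0.224).

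Other ligands and receptors of the IL-1 family were called at day 6 in 6 of 12 tested cases, all as higher, and in none at the other days. Of these 6, Il1f9, Il1r2, and Il1rl1 passed the filter on low counts in at most 1 WT library each, too few to pass without HNKO libraries, so that their tests give no support, and of the other 9 genes 3 were called. Il33, the gene of an alarmin cytokine, rose by 1.203 (SE 0.22, adjusted p = 0.000408), from 2.03 to 2.32 log2 CPM in WT to 3.03 to 3.68 in HNKO livers. The receptor genes Il1rl2 (1.26) and Il18rap (1.42) also rose. Il1r2, which encodes a decoy receptor for IL-1, ranged over the 4 days from -3.798 to -0.72 log2 CPM in WT and from -3.798 to 1.32 log2 CPM in HNKO livers. Of 17 tested genes downstream of the IL-1 receptor, 3 rose at day 6 and 2 at day 12, where 12.8% and 7.82% of all tested genes were called. The median fold change was 0.04, -0.08, and -0.11 at days 6, 12, and 21. Averaged over the 4 days, 5 of the 17 were called higher and 4 lower, where 19.2% and 17.3% of all tested genes were. Irak3, the gene of an inhibitory member of the IRAK family, rose by 1.503 at day 6 (SE 0.34, adjusted p = 0.00303) and by 1.13 at day 12 (SE 0.30, adjusted p = 0.0186). Irak4 rose by 0.47 (SE 0.10) and the adaptor gene Myd88 by 0.46 (SE 0.15) at day 6, and Pycard, an inflammasome adaptor gene, rose by 0.56 at day 12 (SE 0.17).

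Genes known to respond to STAT3 and to IL-6 and IL-1 in liver were called most often at day 6. Of 12 early response genes, 3 rose at day 6 and the same 3 at day 12, where 8.42% and 4.56% of all tested genes were called higher, and the median fold change was 0.44 and 0.42. Tifa, an adaptor of NF-κB signalling, rose by 1.25 and 1.01 at days 6 and 12, Steap4, a metalloreductase gene, by 1.80 and 0.93, and Fos, an AP-1 factor gene, by 1.74 and 1.44. Of 23 acute phase genes, 4, 16, 9, and 1 were called at days 3, 6, 12, and 21, all higher in HNKO, with a median fold change of 0.17, 1.07, 0.46, and 0.11. The share of all tested genes called higher was 2.95%, 8.42%, 4.56%, and 2.21% at these days, so that 1 of 23 at day 21 was near it. Saa1, a serum amyloid A gene, stood at 3.71 to 4.90 log2 CPM in WT and at 9.38 to 10.72 in HNKO livers of day 6, and rose by 5.66 (SE 0.67, adjusted p = 2.93e-06). Lcn2, which encodes the siderophore-binding protein lipocalin 2, was called at all 4 days, with fold changes of 2.42, 4.69, 3.56, and 2.85. Lrg1 rose by 2.14 at day 6, and Hpx, the hemopexin gene, by 1.39. Saa2, with 6.03 at day 6, shares 29.5% of the stretches of 51 bases in its transcripts with other genes and Saa1 shares 30.9%, so that their separate values are uncertain. Crp, which encodes C-reactive protein, had a day 6 fold change of 0.10 (SE 0.15, adjusted p = 0.725).

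**Figure D4:**
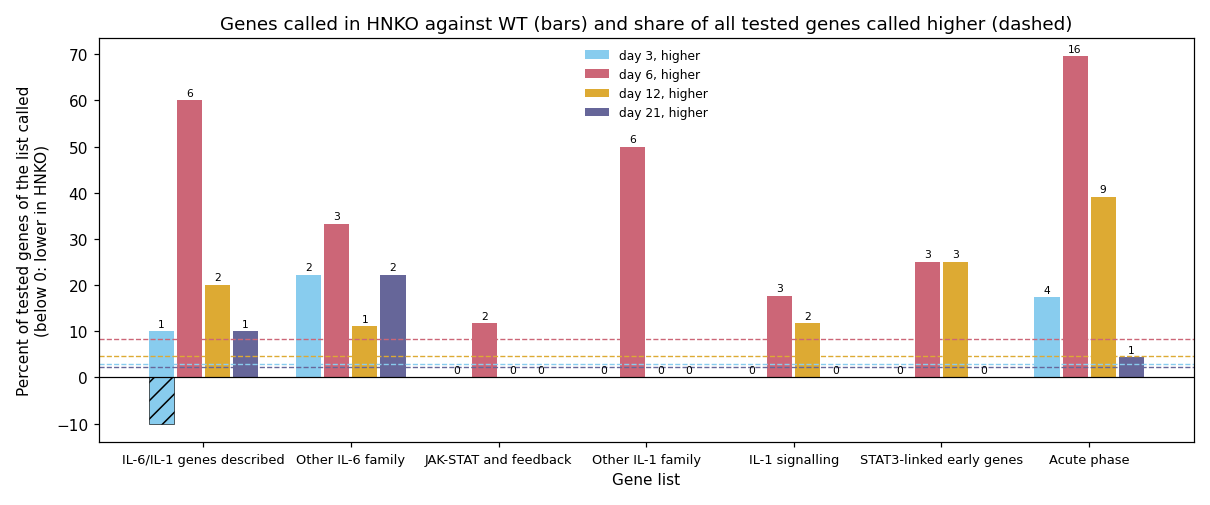
Percent of the tested genes of each list (x axis) that were called in HNKO against WT at each day (y axis, higher above 0 and lower below 0, with the number called higher on each bar), with dashed lines at the percent of all tested genes called higher. Day 6 bars are the tallest in each list, with 6 of the 10 genes described here and 16 of 23 acute phase genes, except that the early response genes have 3 at days 6 and 12. The bars of the other IL-6 and IL-1 family genes include Lif, Osm, Il1f9, Il1r2, and Il1rl1, which were tested only through HNKO libraries.

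Markers of other cell types were also called at day 6, where 8.42% of all tested genes were called higher and 4.37% lower. For neutrophils, 6 of 11 markers were tested, of which 3 (Cxcr2, Retnlg, and Mmp8) passed the filter in no WT library and the other 3 rose at day 6, and the summed level of the 11 was 4.30 to 5.99 CPM in WT and 17.9 to 57.8 CPM in HNKO livers of day 6. Ly6g and Mpo had 0 counts in all WT libraries of day 6. Monocyte markers rose in 5 of 5 cases at day 6, apart from Chil3, which passed the filter only with HNKO libraries. The summed level of all 6 monocyte markers was 9.41 to 13.2 CPM in WT and 29.97 to 104 CPM in HNKO livers of day 6. Kupffer cell and macrophage markers rose in 3 of 9 cases, Lyz2, Cd68, and Csf1r, and the other 6 were not called. The sum of the 9 was 627 to 793 CPM in WT and 800.3 to 1159 CPM in HNKO livers. HNKO library 29, with the highest log2 CPM of Il1b (4.44) and of Il1rn (4.72), also had the highest sums of neutrophil (57.8 CPM), monocyte (104 CPM), macrophage (1159 CPM), cholangiocyte (764 CPM), and lymphocyte (127 CPM) markers and the lowest sum of hepatocyte markers (55073 CPM) of the 38 libraries. Cholangiocyte markers rose in 5 of 7 cases at day 6 (41.9 to 55.7 CPM in WT and 174 to 764 CPM in HNKO). Hepatocyte markers fell in 2 of 8 cases at day 6, Alb and Ttr, and their sum was 113722 to 125617 CPM in WT and 55073 to 98959 CPM in HNKO livers. The part of these cell types in the differences of the 10 genes was not tested.

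Marker sums at days 3 and 12 are given for comparison. At day 3, where Osmr was called, the neutrophil sum was 5.05 to 6.77 CPM in WT and 5.28 to 12.99 CPM in HNKO livers, and the macrophage sum was 571 to 792 CPM in WT and 614 to 821 CPM in HNKO livers. The monocyte sum at day 3 was 10.96 to 18.8 CPM in WT and 16.7 to 55.6 CPM in HNKO, and the cholangiocyte sum was 50.7 to 60.7 CPM in WT and 121 to 415 CPM in HNKO. At day 12, where Osmr and Socs3 were called, the neutrophil sum was 3.66 to 4.91 CPM in WT and 4.02 to 18.7 CPM in HNKO, and the macrophage sum was 323 to 585 CPM in WT and 424 to 861 CPM in HNKO. Neutrophil and macrophage sums overlapped between the genotypes at both of these days. At day 12, the monocyte sum (7.23 to 9.04 CPM in WT and 11.8 to 31.2 CPM in HNKO) and the cholangiocyte sum (53.7 to 56.5 CPM in WT and 118 to 231 CPM in HNKO) did not overlap.

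**Figure D5:**
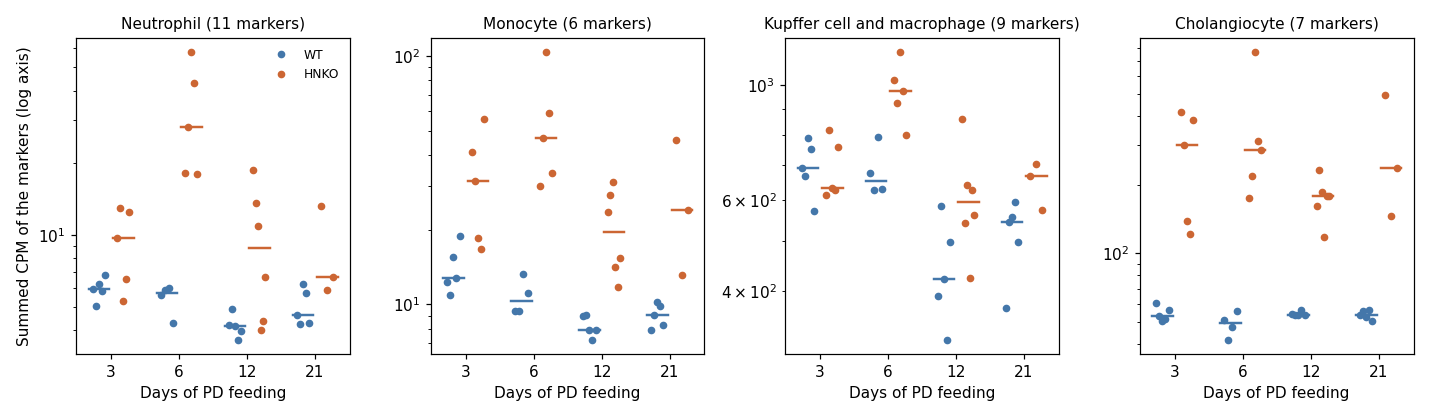
Summed CPM of the markers of 4 cell types (y axes, log scale) against days of PD feeding (x axis), with 1 point per library and lines at the group median (WT in blue, HNKO in orange, n = 3 to 6 per group). At day 6 all HNKO libraries are above all WT libraries for each of the 4 lists, and for cholangiocyte markers they are so at every day.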

How the data were processed

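Total RNA of 40 whole livers went through a stranded kit with removal of rRNA, and both ends of fragments were read over 51 bases. Whether counting used the strand is not given in the sources used here. The authors aligned reads to GRCm38 with STAR 2.7.2b, counted fragments on GENCODE M22 genes with featureCounts 1.6.4 where both ends aligned, and deposited raw counts per gene. Replicates are libraries of separate mice, and library numbers come from the labels. Libraries 17 and 18 were left out. The filterByExpr filter (minimum count 10, minimum total count 15, minimum proportion 0.7) removed 35190 genes and kept 99.937% of counts. Counts were scaled by TMM, fitted with 1 mean per genotype and day, and tested with the quasi-likelihood test of edgeR 4.0.16 in R 4.3.3 (legacy dispersion), with Benjamini-Hochberg adjustment over all 20297 tested genes. The fit was tested on simulated data with changes larger than most of those here, the same dispersion for every gene, and no changed gene of low count. That run does not cover small fold changes or low counts such as those of Il6. SEs are those implied by the test statistic. Correlations used 100000 permutations within groups. Positions, exon lengths, and shared 51-base stretches came from GENCODE M21 of the same build, and symbols were matched for 55094 genes. Depth and the spread between mice limit precision, most for Il6. Alternatives were DESeq2 size factors, DESeq2 1.42.0, no filter, all 40 libraries, the 2 groups of a day alone, the label series as a covariate, a prior count of 0.5, and leaving out each library. Named genes are the 10 genes, up to 5 called genes per pathway list, and up to 3 per marker list, by smallest average p. Socs1, Stat5a, Crp, Il1rl1, Retnlg, Mmp8, Ly6g, and Mpo fall outside this rule and were named after their values were seen. The members and lists were chosen with earlier results of these data known.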

Additional observations from a re-analysis of the deposited data

Results flagged for a closer look

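Among 70 sets of values, for 10 genes in the 7 groups of 4 to 6 libraries, 3 held a library far from the others, where chance gives about 3.5. Stat3 in WT library 24 of day 3 stood at 7.26 log2 CPM, with the nearest other library at 6.999. In WT library 26 of day 3, Il1b stood at 1.05 log2 CPM, with the nearest at 2.19, and Il1r1 stood at 4.98, with the nearest at 5.61. Libraries 17 and 18 of HNKO at day 21, which failed quality control and entered only the alternatives with all 40 libraries, were above all 5 WT libraries of day 21 for some of the 10 genes. Osmr stood at 3.41 log2 CPM in library 17 and at 3.77 in library 18, Stat3 at 7.21 and 7.42, and Il1b at 4.62 and 3.79. Library 18 alone was above WT for Il6ra (5.94), Il6st (8.69), and Il1r1 (5.71). Il6 had 0 counts in both libraries and lay below every WT library of day 21, and with them the HNKO minus WT difference of means at day 21 was 0.60 log2 CPM (exact permutation test, two-sided, p = 0.341, n = 5 and 5) instead of 1.46 (p = 0.0179, n = 3 and 5, the smallest this test can give). Whether these values come from the quality of the libraries was not tested.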

How the results depend on the processing

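Of the 10 genes, the number called at day 3 was 2 and became 1 with no filter, 1 with all 40 libraries, and 0 in a fit of the 2 groups of the day. The number called at day 21 was 1 and became 0 with no filter, with all 40 libraries, with the label series as a covariate, and in a fit of the 2 groups. DESeq2 called 1 gene for the interaction and 1 for the day effect within WT, where edgeR called 0. Leaving out each library gave 0 to 2 genes at day 3, 5 to 6 at day 6, 1 to 4 at day 12, 0 to 1 at day 21, 7 to 10 for the average, 0 to 1 for the interaction, 0 to 1 for the day effect within WT, and 2 to 4 within HNKO. Direction turned only in fold changes that were not called. At day 21, Lifr was 0.000472 with DESeq2 size factors, 0.000499 with DESeq2, 0.00215 with no filter, 0.0360 with the label series, 0.0146 in a fit of the 2 groups, and -0.12 to 0.21 without 1 library. Il1rn at day 21 was 0.0737 with all 40 libraries (0.0412 as a difference of means), 0.20 with the label series, 0.0105 in a fit of the 2 groups, and -0.27 to 0.27 without 1 library. Without 1 library, values ran from -0.15 to 0.41 for Il1rn at day 12, from -0.10 to 0.20 for Il1r1 and from -0.28 to 0.17 for Socs3 at day 3, and from -0.0144 to 0.92 for Il6 and from -0.20 to 0.0402 for Il6ra at day 6. Over all genes, 945, 2596, 1588, and 634 were called at days 3, 6, 12, and 21. These counts were 331, 1321, 624, and 1350 with all 40 libraries and 420, 1325, 867, and 660 with the 2 groups alone, and DESeq2 gave 1428 at day 3 and 994 at day 21. For the day effect within WT, 1185 genes became 1856 with DESeq2, 581 with all 40 libraries, and 2224 with the label series. Without 1 library, counts over all genes were lowest at day 3 without HNKO library 23 (322), at day 6 without HNKO library 29 (1126), at day 12 without WT library 15 (852), and at day 21 without HNKO library 37 (13). DESeq2 gave no adjusted p for Il6 in the tests of a day effect. The causes of these changes were not tested. No paired analysis was possible because no library number is shared between groups. Low counts limit Il6, Lif, Osm, and Il1r2, and 3 HNKO libraries limit day 21.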

Other observations

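Markers of 3 further cell types are given as values, beside 12.8% of all tested genes called at day 6. Of 8 stellate cell and fibroblast markers, 3, 2, 2, and 1 rose at days 3, 6, 12, and 21, and 1 fell at day 12, where 2.95%, 8.42%, 4.56%, and 2.21% of all tested genes were called higher at these days and 3.27% lower at day 12. Col1a1, a collagen gene, rose at all 4 days, by 4.02 on the log2 scale at day 6 (SE 0.67, adjusted p = 0.000197), and Pdgfrb rose by 1.11 at day 6 (SE 0.25, adjusted p = 0.00298). The stellate sum was 535 to 593 CPM in WT and 595 to 779.9 CPM in HNKO livers of day 6. Of 8 lymphocyte markers, Ptprc, a gene of all leukocytes, was the only one to rise at day 6, by 1.04 (SE 0.20, adjusted p = 0.000959). Of 7 endothelial markers, Kdr was the only one called at day 6 and fell by 0.37 on the log2 scale (SE 0.10, adjusted p = 0.00934). With 1 gene called in each, the lymphocyte and endothelial lists were near the share of all tested genes. The part of these cells in the values of the 10 genes was not tested.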
